A study of Homo sapiens with 2 samples.

Results

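The genes described here are long non-coding RNAs of 3 kinds: host transcripts of small nucleolar RNAs (snoRNAs), host transcripts of microRNAs, and the abundant RNAs MALAT1, NEAT1, H19 and MEG3. They were chosen by symbol, as SNHG or MIR...HG names plus GAS5 and the 4 named RNAs, and each was matched to the array through a RefSeq accession. Of 110 such symbols, 51 genes matched probes on the array, among 21739 named genes in all. These 51 genes comprised 22 named as snoRNA hosts (GAS5 among them, and 4 in which RefSeq places no named snoRNA: SNHG10, SNHG20, SNHG21 and SNHG27), 25 microRNA hosts and the 4 other RNAs, and 119 probes measured them, each printed once. The study lowered periostin, a matricellular protein secreted by fibroblasts, in MRC-5 cells, an established human fetal lung fibroblast line, to ask which genes depend on it. One group received 10 nM control siRNA and the other 10 nM periostin siRNA, both for 48 h, with 1 culture and 1 single-colour array each and no untreated cells. With 1 array per condition there is no spread between cultures, so no test was possible, no p-value is given, and a difference between the cultures cannot be told apart from one between the siRNAs.

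A snoRNA host is transcribed and spliced like a messenger RNA, its snoRNAs are trimmed out of the introns, and the spliced remainder is often short-lived because translation of its small open reading frames exposes it to nonsense-mediated decay. A microRNA host is a primary transcript from which the nuclear Microprocessor cuts hairpins, so the array reads the host and not the mature microRNA or the snoRNA. MALAT1 and NEAT1 are nuclear RNAs from neighbouring genes that mark nuclear speckles and build paraspeckles, and MEG3 and H19 are imprinted RNAs transcribed from the maternal allele.

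Signals below are background-subtracted intensities scaled so that both arrays share 1 75th percentile, ratios are log2 of periostin siRNA over control siRNA, and a gene is represented by its brightest probe. The error after ± is the one the scanner software propagated for that pair of spots, and it covers neither culture nor hybridization. Over the 95 probes well above background on both arrays it ran from 0.204 to 0.387, with a median of 0.204. It was thus nearly a fixed value for most probes and not a spread seen at those spots. The pooled SD of the log2 ratio over repeated spots was 0.12 across 667 probes, 0.24 in the dimmest 133 of them and 0.05 in the brightest 133. The targeted gene, POSTN, was 9.43-fold lower with periostin siRNA, at a signal of 280 against 2638. All 12 fibroblast markers examined were well above background on both arrays, with a median log2 ratio of -0.08 and no member past 2-fold. Of 13 markers of other cell types, 5 were well above background on neither array (CDH1, KRT5, PECAM1 and MSLN among them) and 6 on both. The signals of the 13 summed to 521 with control siRNA and to 921 with periostin siRNA. Of the 8 with a ratio, 7 were above 0 and the median was 0.42, while 54.5% of all 16050 genes with a ratio were above 0. CD14, a monocyte receptor, went from 287 to 549, a log2 ratio of 0.94, and EPCAM, an epithelial adhesion molecule, read 34.6 with control siRNA and 135 with periostin siRNA, and the part of any other cell type in the values below was not tested. In such a bulk sample, fewer cells of a type and less RNA per cell cannot be told apart.

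Of all 21739 named genes, 14955 were well above background on both arrays and 16050 had a ratio. Of the 51 genes, 36 were well above background on both arrays, 2 with control siRNA alone (MIR155HG and MIR4500HG), 3 with periostin siRNA alone (H19, MIR924HG and SNHG31) and 10 on neither. The last 10, which have no ratio, were the snoRNA hosts SNHG4 and SNHG27 and the microRNA hosts MIR99AHG, MIR600HG, MIR663AHG, MIR2052HG, MIR3663HG, MIR3936HG, MIR3976HG and MIR4290HG. The second SNHG4 probe was well above background with control siRNA alone, at 9.64. Of the 41 genes with a ratio, none was more than 3-fold higher with periostin siRNA, against 3.37% of all 16050 genes measured, and 1 was more than 3-fold lower, against 2.75%. The background itself moved with the processing, from 541 genes higher and 441 lower to 143 and 190 with the normexp correction. With scaling on the median the counts were 453 and 525. The normexp correction adds an offset of 50 to every signal, so ratios of dim spots shrink toward 0 by construction. Past 2-fold, 5 were higher, against 7.97% of all genes measured, and 2 were lower, against 6.42%. The higher ones were MEG3, NEAT1, MIR503HG, SNHG31 and MALAT1, and the lower ones were SNHG3 and MIR155HG. The median log2 ratio of the 41 was 0.22, beside 0.06 for all genes measured. Of the 41, 29 were above 0, beside 54.5% of all genes measured. Counts about 0 shift with the scaling, since scaling on the median moved the all-gene median to -0.07. The snoRNA hosts had a median of 0.18 and the microRNA hosts 0.19, while 3 of the 4 other RNAs stood past 2-fold.

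**Figure D1:**
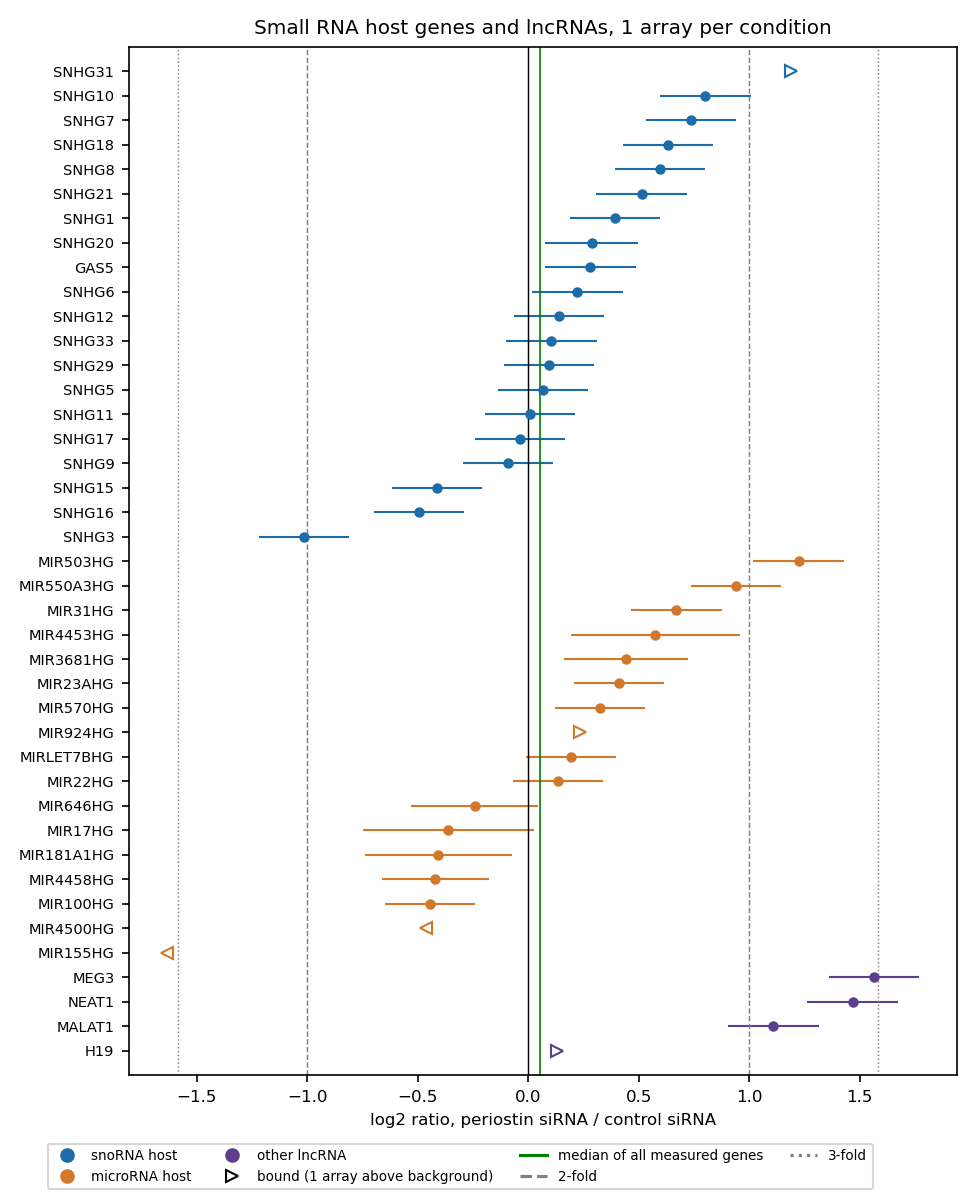
Ratio on the log2 scale, periostin siRNA over control siRNA, for the 41 genes with a ratio, with 1 array per condition. Filled points are genes well above background on both arrays with the propagated spot error as bars, open triangles are bounds for genes above background on 1 array, and the green line is the median of all measured genes at 0.06; MEG3, NEAT1 and MALAT1 lie to the right of the 2-fold line and SNHG3 and MIR155HG to the left of it.

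MEG3, NEAT1 and MALAT1 were well above background on both arrays, and all were higher with periostin siRNA. MEG3, an imprinted RNA with growth-restraining activity in cultured cells, read 19518 with control siRNA and 57790 with periostin siRNA. Its log2 ratio was 1.57 ± 0.20, a 2.96-fold difference. It was the highest ratio among the 36 genes measured on both arrays. All 5 MEG3 probes pointed the same way, from 0.83 to 1.61, with 4 of them past 2-fold. The probe nearest to no difference read 2312 and 4101.

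NEAT1, the RNA scaffold on which paraspeckles assemble, read 5734 with control siRNA and 15859 with periostin siRNA. Its log2 ratio was 1.47 ± 0.20, or 2.77-fold. The 4 NEAT1 probes lay between 1.32 and 1.67, with a mean of 1.49 and an SD of 0.15 over probes. NEAT1 was thus higher by more than 2-fold at every one of its probes.

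MALAT1, a nuclear-speckle RNA linked to splicing and transcription, read 61486 with control siRNA and 132708 with periostin siRNA. Its log2 ratio was 1.11 ± 0.20, or 2.16-fold. The 8 MALAT1 probes did not give 1 value, since 5 lay between 1.11 and 1.73 and 3 between 0.19 and 0.42, and their mean was 1.0 with an SD of 0.63. All 8 were higher with periostin siRNA. With scaling on the median of each array the brightest probe fell to 0.98, short of 2-fold.

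H19, the imprinted RNA beside IGF2, was barely measured. Its brighter probe read 4.38 with control siRNA, not well above background, and 8.26 with periostin siRNA, for a bound of 1.09-fold higher. On the log2 scale this bound was 0.13, smaller than the spot error of 0.62. With the normexp correction, whose offset shrinks the ratio of any dim spot, the H19 ratio was 0.04. Its second probe was well above background on neither array. IGF2 itself, the paternally expressed growth factor of that locus, read 573 and 630, a log2 ratio of 0.14.

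**Figure D2:**
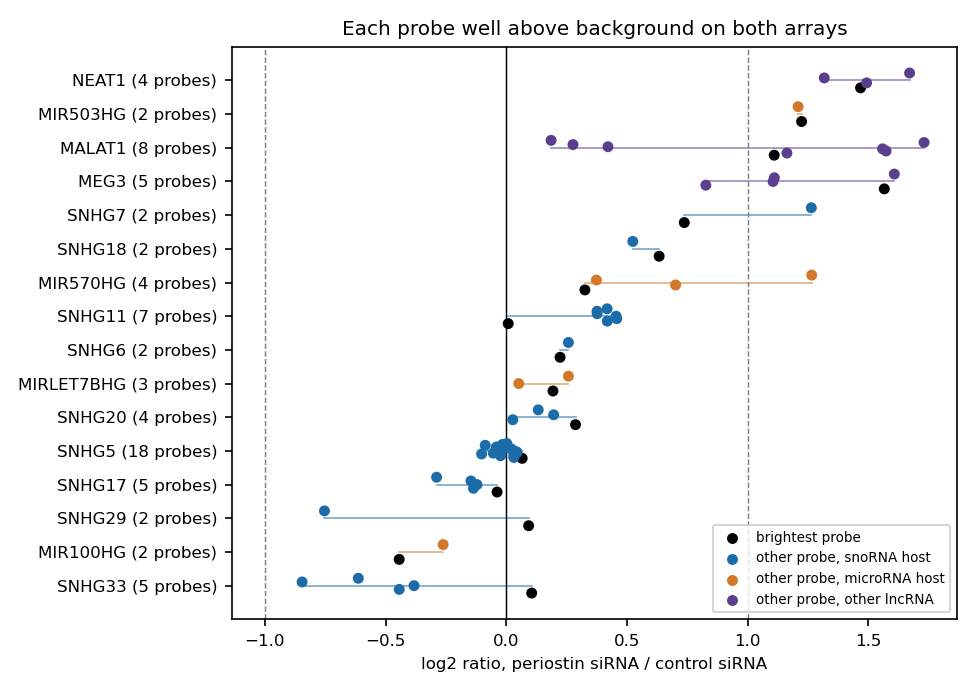
Ratio on the log2 scale, periostin siRNA over control siRNA, for every probe well above background on both arrays, for the 16 genes with more than 1 such probe. Black points are the brightest probe and dashed lines mark 2-fold; the NEAT1 probes lie close together, the MALAT1 probes fall in 2 sets and the 18 SNHG5 probes cluster at 0.

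The MEG3 start region is shown because 1 of the 3 short motifs searched in the promoters, the cAMP response element, occurred in it and in no other promoter examined here. It was taken from RefSeq sequence on GRCh38.p14, chr14:100825858-100826157, plus strand, and spans 250 bases before to 50 after an annotated start. The capitals mark TGACGTCA, a match that begins 50 bases before the start, and neither other motif occurred in this window.
MEG3 promoter: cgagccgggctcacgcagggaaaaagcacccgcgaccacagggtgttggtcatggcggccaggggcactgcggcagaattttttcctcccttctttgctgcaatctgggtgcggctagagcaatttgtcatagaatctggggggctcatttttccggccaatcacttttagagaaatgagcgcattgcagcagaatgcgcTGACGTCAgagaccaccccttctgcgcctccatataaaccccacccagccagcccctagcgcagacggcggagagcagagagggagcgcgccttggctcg
The same 8 letters, read on both strands, occurred in 1.85% of 35116 promoter windows of that length. Among the 44 genes described here that had a promoter entry, MEG3 alone held it, in all 3 of its overlapping entries. The E-box CACGTG occurred in 7.26% of the windows and here in SNHG7. The interferon-type element (TTTC, any 2 bases, TTTC) occurred in 3.57% of the windows and here in MIR100HG, MIR155HG and MIR924HG. These matches are descriptions of sequence and not of factor binding, which was not measured.

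The genes beside these RNAs did not share their ratios throughout. MEG9, a further non-coding RNA of the imprinted MEG3 locus, read 402 with control siRNA and 985 with periostin siRNA, giving a log2 ratio of 1.29. DLK1, the paternally expressed coding gene of that locus, read 70.0 and 65.6, a log2 ratio of -0.10. RTL1 and DIO3, further coding genes of the locus, were well above background on neither array. So 2 non-coding RNAs of the locus were more than 2-fold higher while its measurable coding neighbour was within the spot error. SLC25A45, a coding gene beside NEAT1 and MALAT1, had a log2 ratio of -0.53, opposite in sign to both RNAs. Which RNAs to describe with their neighbours, here and later, was chosen after the values were seen.

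Of 25 microRNA hosts, 14 were well above background on both arrays, beside 14955 of all 21739 named genes, and 8 on neither. Among the 14, 9 ratios were above 0 and 5 below. The mature microRNAs of the hosts described in most detail are given next, from RefSeq on GRCh38.p14, to show what each host encodes and which seeds are shared; entries matched 12 of these 14 hosts. Capitals mark the seed, bases 2 to 8 from the 5′ end, which guides target pairing.
miR-503-5p, from MIR503HG: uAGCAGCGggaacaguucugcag
miR-550a-3p, from MIR550A3HG: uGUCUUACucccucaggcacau
miR-31-5p, from MIR31HG: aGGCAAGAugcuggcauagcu
miR-23a-3p, from MIR23AHG: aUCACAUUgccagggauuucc
miR-27a-3p, from MIR23AHG: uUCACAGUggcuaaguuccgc
miR-24-3p, from MIR23AHG: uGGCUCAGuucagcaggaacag
let-7a-5p, from MIR100HG and MIRLET7BHG: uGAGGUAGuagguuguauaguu
let-7b-5p, from MIRLET7BHG: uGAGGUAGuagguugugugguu
miR-100-5p, from MIR100HG: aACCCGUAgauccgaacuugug
miR-125b-5p, from MIR100HG: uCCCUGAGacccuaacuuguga
Of these, let-7a-5p and let-7b-5p share the seed GAGGUAG; let-7a-5p is encoded in both MIR100HG and MIRLET7BHG, and let-7b-5p in MIRLET7BHG.

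MIR503HG, on chromosome X, carries miR-503, a microRNA with cell-cycle targets, encoded at chrX:134546371-134546393 on the minus strand for the 5p arm. The host read 1392 with control siRNA and 3250 with periostin siRNA. Its log2 ratio was 1.22 ± 0.20, or 2.34-fold, and the second probe gave 1.21. It was the only microRNA host well above background on both arrays that was past 2-fold at its brightest probe. PLAC1, a neighbour of MIR503HG, went from 10.4 to 31.2, a log2 ratio of 1.58, while HPRT1 on the other side had -0.30.

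MIR155HG, which encodes miR-155 of immune and inflammatory cells, was the single gene of the 41 past 3-fold. It read 24.1 with control siRNA and 5.62 with periostin siRNA, which was not well above background. The bound was 3.11-fold lower, or -1.64 on the log2 scale, with a spot error of 0.53. This call rested on a dim spot. With the normexp background correction its log2 ratio was -0.28, but the offset of 50 shrinks any ratio this dim, so that value is no check of the call. MIR4500HG was the other host above background with control siRNA alone, at 10.7 against 2.24, with a bound of 1.38-fold lower. MIR924HG was above background with periostin siRNA alone, at 8.87 against 2.20, with a bound of 1.18-fold higher. Both bounds, -0.46 and 0.23 on the log2 scale, were smaller than their spot errors of 1.13 and 1.18. With the normexp correction the log2 ratios were -0.21 and 0.13, likewise shrunk by the offset.

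The let-7 hosts differed in sign. MIR100HG, which carries miR-100, let-7a-2 and miR-125b-1, read 2055 with control siRNA and 1511 with periostin siRNA, giving a log2 ratio of -0.44 ± 0.20, and its second probe gave -0.26. MIRLET7BHG, which carries let-7a-3 and let-7b, read 430 and 491, a log2 ratio of 0.19 ± 0.20, with 3 probes between 0.05 and 0.26. Neither host was past 2-fold, and the MIRLET7BHG ratio did not exceed its spot error.

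Among the remaining microRNA hosts the differences stayed under 2-fold at the brightest probe. MIR550A3HG went from 163 to 313, a log2 ratio of 0.94 ± 0.20. MIR31HG, whose miR-31 acts in cell migration and invasion, went from 174 to 277, a log2 ratio of 0.67 ± 0.20. MIR23AHG, the host of the clustered miR-23a, miR-27a and miR-24, went from 616 to 819, a log2 ratio of 0.41 ± 0.20. All 3 exceeded their spot error, and MIR550A3HG came closest to 2-fold. MIR22HG, a stress-responsive host, was within its error at 943 and 1036, a log2 ratio of 0.14. MIR570HG had a log2 ratio of 0.33 at its brightest probe, and its 4 probes ran from 0.33 to 1.27. MIR17HG, the host of the growth-promoting miR-17 to miR-92a cluster, read only 11.9 and 9.28, a log2 ratio of -0.36 ± 0.39 that did not exceed its error. The dim hosts MIR181A1HG, MIR4458HG and MIR646HG had log2 ratios of -0.41 ± 0.33, -0.42 ± 0.24 and -0.24 ± 0.29. MIR3681HG and MIR4453HG were also dim, at 15.6 and 21.2 and at 8.38 and 12.5. Their log2 ratios were 0.44 ± 0.28 and 0.58 ± 0.38.

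Most snoRNA hosts were measured. Of 22, 19 were well above background on both arrays, beside 14955 of all 21739 named genes. Of the 20 with a ratio, 1 was past 2-fold higher and 1 past 2-fold lower, beside 7.97% and 6.42% of all genes measured. The lower one was SNHG3, whose introns hold the H/ACA snoRNAs SNORA73A and SNORA73B. It read 2592 with control siRNA and 1284 with periostin siRNA. Its log2 ratio was -1.01 ± 0.20, or 2.02-fold lower, at its single probe. Among the 36 genes measured on both arrays this was the lowest ratio, and it fell short of 2-fold without scaling, at -0.97, and with the normexp correction, at -0.997. RCC1, the chromatin-bound exchange factor whose gene overlaps SNHG3, went from 166 to 95.5, a log2 ratio of -0.80, while PHACTR4 on the other side went from 539 to 685, a log2 ratio of 0.35.

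SNHG16, a host of box C/D snoRNAs, and SNHG15, a host of SNORA9, were the next lowest. SNHG16 read 10207 with control siRNA and 7255 with periostin siRNA, giving a log2 ratio of -0.49 ± 0.20. SNHG15 read 736 and 553, a log2 ratio of -0.41 ± 0.20. Both exceeded the spot error and neither reached 2-fold. SNHG9 was slightly lower, at -0.09, within its error.

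In the other direction, SNHG10, which has a host name but no named snoRNA in RefSeq, read 111 with control siRNA and 194 with periostin siRNA, giving a log2 ratio of 0.80 ± 0.21. SNHG7, a host of SNORA17A and SNORA17B, read 736 and 1226, a log2 ratio of 0.74 ± 0.20, and its second probe gave 1.26. These 2 were the highest of the genes with a snoRNA host name that were measured on both arrays. DIPK1B, which overlaps SNHG7, went from 47.7 to 96.5, a log2 ratio of 1.02, and LCN10 on the other side was well above background on neither array. SNHG8, a host of SNORA24, went from 21828 to 33012, a log2 ratio of 0.60 ± 0.20. SNHG18 had 0.63, with 0.52 at its second probe, and SNHG21 had 0.51. SNHG1, which holds 8 box C/D snoRNAs, went from 1890 to 2483, a log2 ratio of 0.39, while the adjacent SLC3A2, the heavy chain of amino acid transporters, went from 3296 to 1639, a log2 ratio of -1.01, and WDR74 on the other side had -0.33. SNHG31 was above background with periostin siRNA alone, at 17.2 against 4.17. Its bound was 2.28-fold higher, or 1.19 on the log2 scale, with a spot error of 0.73. With the normexp correction, whose offset shrinks the ratio of any dim spot, its log2 ratio was 0.21. ABCA12, a lipid transporter gene that overlaps SNHG31, was likewise above background with periostin siRNA alone, at 87.3 against 7.58, while BARD1 on the other side had a log2 ratio of 0.02.

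GAS5, a growth-arrest transcript that holds 10 box C/D snoRNAs and 1 H/ACA snoRNA and is degraded by nonsense-mediated decay in translating cells, read 44369 with control siRNA and 53942 with periostin siRNA. Its log2 ratio was 0.28 ± 0.20 at its 1 probe. SNHG12 had 0.14, SNHG6 had 0.22 with 0.26 at its second probe, and SNHG20 had 0.29, with its 4 probes from 0.03 to 0.29. GAS5, SNHG6 and SNHG20 slightly exceeded their spot errors, and none of these hosts approached 2-fold.

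For 5 snoRNA hosts the ratio of the brightest probe lay so close to 0 that another scaling, which moves all genes alike, turned its sign. SNHG5, the host of SNORD50A and SNORD50B, was the most densely measured gene, and its 18 probes had a mean log2 ratio of -0.01 with an SD of 0.05, ranging from -0.10 to 0.07. Its brightest probe read 64731 with control siRNA and 67761 with periostin siRNA, giving 0.07 ± 0.20, which turned to -0.06 with scaling on the median. SNHG11 read 11964 and 12032 at its brightest probe, a log2 ratio of 0.01 ± 0.20 that became -0.12 with scaling on the median, and its other 6 probes gave 0.38 to 0.46, all above 0. SNHG33 had 0.11 at its brightest probe, -0.02 with scaling on the median, and -0.85 to -0.38 at the other 4. SNHG29 read 37993 and 40516, a log2 ratio of 0.09 ± 0.20 that turned to -0.04 with scaling on the median, and had -0.75 at its second probe. SNHG17 had -0.04, 0.01 without scaling, and -0.29 to -0.12 at its other 4 probes, so that all 5 were below 0. SNHG5 thus gave nearly the same value at every probe, whereas the brightest probe of SNHG11, SNHG33 and SNHG29 stood apart from the rest.

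Over all 51 genes, 95 of the 119 probes were well above background on both arrays, of which 65 had ratios above 0 and 30 below. SNHG5 alone gave 18 of these 95 probes. The like share over all probes of the array was not computed, and the 54.5% of all genes measured that were above 0 counts each gene once. Of the 16 genes with more than 1 such probe, 11 had every probe above 0, 2 had every probe below 0, and 3 were mixed (SNHG5, SNHG29 and SNHG33). Probes of 1 gene share its RNA, hybridization and scan and are no replicates of the cultures.

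The snoRNA hosts were also divided by the snoRNAs that RefSeq places in them. The 6 hosts of box C/D snoRNAs alone, which guide ribose methylation, had a median log2 ratio of 0.16, with 5 above 0 and 1 below. The 8 measured-on-both hosts of H/ACA snoRNAs alone, which guide pseudouridylation, had a median of -0.01, with 4 above and 4 below. The values of these classes overlapped widely, from -0.49 to 0.63 and from -1.01 to 0.74. Several signs were unstable. SNHG5 and SNHG29 of the box C/D hosts, and SNHG11 and SNHG33 of the H/ACA hosts, turned below 0 with scaling on the median. SNHG17, an H/ACA host, turned above 0 without scaling. Of all genes measured, 54.5% were above 0. GAS5 and SNHG12, which hold both kinds, had a median of 0.21. Of the 4 genes with a host name and no named snoRNA, the 3 measured on both arrays were all above 0, with a median of 0.51.

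**Figure D3:**
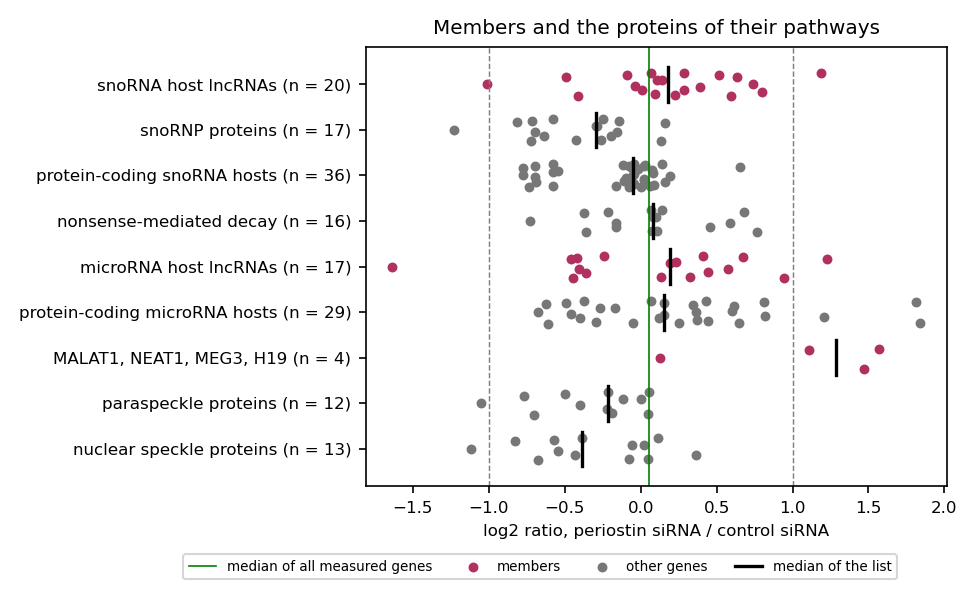
Ratio on the log2 scale, periostin siRNA over control siRNA, for the RNAs described here (red) and for lists of genes of the same pathways (grey), each point 1 gene and each black bar the list's median. The green line is the median of all measured genes at 0.06; the snoRNP, paraspeckle and nuclear speckle lists have medians below it, at -0.29, -0.22 and -0.38, and the 3 kinds of long non-coding RNA have medians above it.

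The proteins that work with these RNAs were set beside them. Of 17 proteins that form or assemble snoRNP particles, all well above background on both arrays, 15 had log2 ratios below 0, whereas 54.5% of all genes measured were above 0. The median of the 17 was -0.29, beside 0.06 for all genes measured and 0.18 for the snoRNA host RNAs. FBL, the methyltransferase of box C/D particles, went from 19792 to 11979, a log2 ratio of -0.72, and DKC1, the pseudouridine synthase of H/ACA particles, went from 1887 to 1266, a log2 ratio of -0.58. RUVBL1, a chaperone ATPase of snoRNP assembly, was the single one past 2-fold, at -1.23, beside 6.42% of all genes measured past 2-fold lower. The 36 measured protein-coding snoRNA hosts, mostly ribosomal proteins and translation factors, had a median of -0.05 with none past 2-fold. The 16 factors of nonsense-mediated decay had a median of 0.08, also with none past 2-fold. UPF1, the central helicase of that pathway, had a log2 ratio of 0.59.

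For NEAT1 the comparison was with paraspeckle proteins, all 12 of which were measured, with a median of -0.22 and 9 below 0. SFPQ, a core paraspeckle protein, had -0.77 and its partner NONO had 0.00. For MALAT1, the 13 nuclear speckle proteins had a median of -0.38, with 9 below 0 and the splicing factor SRSF7 past 2-fold at -1.12. NEAT1 and MALAT1 were higher with periostin siRNA. Of the genes for the proteins of their nuclear bodies, 9 of 12 and 9 of 13 had ratios below 0, whereas 54.5% of all genes measured were above 0.

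For the microRNA hosts, 29 protein-coding microRNA hosts had a median of 0.16, beside 0.19 for the non-coding ones. Among them 3 were more than 2-fold higher, namely the arrestin ARRB1 at 1.21, the aminopeptidase AOPEP at 1.81 and the phosphodiesterase PDE2A. PDE2A was above background with periostin siRNA alone, at 27.1 against 6.99, with a bound of 3.58-fold higher and a log2 spot error of 0.45. No gene of that list was past 2-fold lower. Among all genes measured, 7.97% were past 2-fold higher and 6.42% lower, which applies to the next list as well. For MEG3 and H19, 13 measured genes of their loci and of the imprinted network had a median of 0.06. Of these, the growth suppressor NDN, MEG9, the cyclin-dependent kinase inhibitor CDKN1C and the antisense RNA KCNQ1OT1 were more than 2-fold higher, at 1.34, 1.29, 1.05 and 1.04, and the zinc finger gene PEG3 was more than 2-fold lower, at -1.37.

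**Figure D4:**
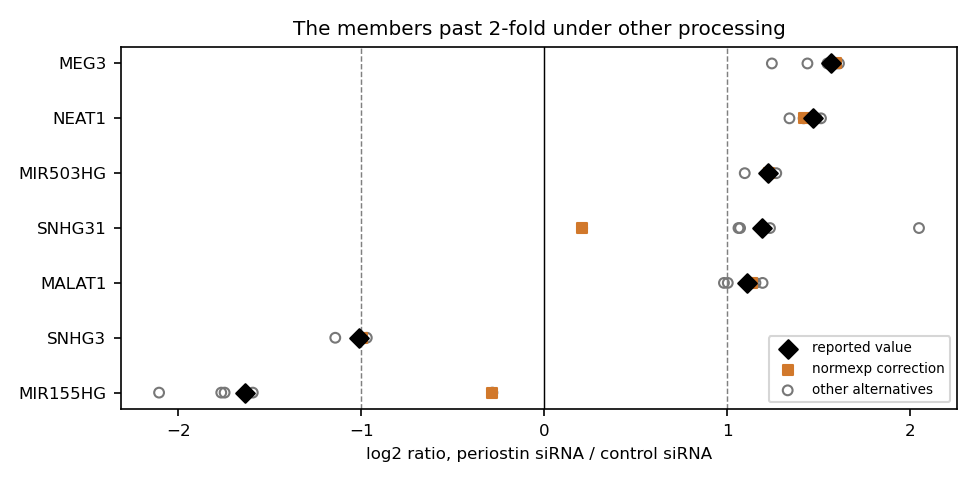
Ratio on the log2 scale, periostin siRNA over control siRNA, for the 7 genes past 2-fold as reported (black), with the normexp background correction (orange) and under the other processing alternatives (open circles). MEG3, NEAT1 and MIR503HG stay beyond the dashed 2-fold line throughout, and MALAT1 and SNHG3 lie at its edge. SNHG31 and MIR155HG move to 0.21 and -0.28 with normexp, whose offset of 50 shrinks the ratio of any dim spot toward 0.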

How the data were processed

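The authors deposited 1 scanner file per array, whose intensity values had been background-subtracted by Agilent Feature Extraction (11.5.1.1 in the file headers, 12.0.3.1 in the submitters' processing notes), and a table of normalized intensity values. For 49697 probes printed once, the table equalled the scanner intensity times a single factor, 3.65 (control siRNA) and 3.54 (periostin siRNA), in 100% of probes within a tolerance of 0.001 of the value. The array was annotated on hg19. Control spots were left out. From the 58717 remaining spots, log2 intensity minus its array's 75th percentile was computed (372 and 383 before scaling), and spots of a probe were averaged. No spot was saturated, and 58.0% and 58.9% were well above background. Both arrays shared a slide and a scan.

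Genes were named through RefSeq accessions (GRCh38.p14 names, 65.1% of spots). The probe with the brightest mean signal represented a gene. Where only 1 array had it well above background, a bound was used. It was set against the higher of the other array's dim signal and that array's lowest signal well above background, 7.55 or 7.77 after scaling. That lowest signal is not a detection limit, since an SNHG4 probe at 9.69 and 8.39 was well above background on neither array. A bound is therefore no guaranteed minimum. All members are named, with full values at least for those past 2-fold and the 5 brightest of each class, as are POSTN and genes of the pathway lists past 2-fold or in a member's locus, except some items that are not reported here; further list genes, and neighbours (the nearest measured coding gene on each side in RefSeq order), were chosen for print after their values were seen. The members and lists were chosen with earlier results of these data known. No test was run, since 1 array per condition limits the precision and gives no replicate error. The alternatives were normexp with an offset of 50, other scalings, quantile normalization, the deposited table, the mean over probes, other background filters, outlier flags and a 2-fold threshold. Scaling, bounds and counts were tested on simulated data. Python 3.11.15, numpy 2.4.6, pandas 2.3.3, matplotlib 3.10.9, R 4.3.3 and limma 3.58.1 were used.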

Additional observations from a re-analysis of the deposited data

How the results depend on the processing

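No paired analysis was possible because there was a single array for either siRNA, and neither leaving out a replicate nor a slide block could be run. Of the 41 genes with a ratio, 5 changed sign under some alternative (SNHG5, SNHG11, SNHG17, SNHG29 and SNHG33), none larger than 0.11 as reported. The count more than 3-fold lower, 1 as reported, was 0 with normexp or with genes above background on both arrays, 3 without filter or bound, and 2 at 2-fold. The count more than 3-fold higher, 0 as reported, was 1 with normexp or without scaling (MEG3 at 1.59 and 1.61), 2 without filter or bound, and 5 at 2-fold. Over all genes, the 541 higher and 441 lower past 3-fold became 143 and 190 with normexp and 878 and 686 without filter or bound. The normexp offset of 50 shrinks ratios of dim spots toward 0, so its counts and medians are lowered by construction where spots are dim. Scaling on the median moved the median of all genes from 0.06 to -0.07, that of the genes described here to 0.0945, of the snoRNA hosts to 0.0530 and of the microRNA hosts to 0.0650. The microRNA host median was 0.0700 with normexp and 0.0301 without filter or bound. POSTN was -2.99 with normexp and -3.37 with scaling on the median. The mean over probes gave 1.24 for MEG3. The causes were not tested. Dim spots limit MIR155HG, SNHG31, MIR4500HG, MIR924HG and H19 to bounds, and no alternative measures the spread between cultures.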

Other observations

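Long non-coding RNAs outside the symbol rule were also examined, 22 of them with a ratio and a median of 0.12. CARMN, the host transcript of miR-143 and miR-145 of smooth muscle and fibroblasts, read 35.2 with control siRNA and 268 with periostin siRNA, giving a log2 ratio of 2.93. RMRP, the RNA of the RNase MRP ribonucleoprotein, read 5473 and 1688, a log2 ratio of -1.70. These were the 2 past 3-fold in either direction, and their cause was not tested. Among all genes measured, 3.37% were past 3-fold higher and 2.75% lower. ZFAS1 and EPB41L4A-AS1, snoRNA hosts outside the rule, had log2 ratios of 0.11 and 0.56. DANCR had -0.03, and TP53TG1, a p53-responsive RNA, had 0.59. Some other RNAs lay closer to no difference, with 0.02 for FENDRR, a lung mesenchyme RNA, 0.24 for NORAD and -0.12 for RN7SK, the RNA that restrains transcription elongation. Further from it were HOTAIRM1 at 0.65 and TERC at -0.54.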
